A study of Dendrobium nobile with 12 samples.

Results

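Bud and labellum of the orchid Dendrobium nobile were compared by RNA-seq across 31672 gene models. The comparison uses 4 of the 12 libraries of the series, namely bud replicates 1 and 2 and labellum replicates 1 and 2, chosen by their tissue labels. All 4 are labelled as coming from seedlings 2 years old that were grown in a greenhouse, and 1 genotype name is given for every library of the series. The other 8 libraries are petal (same age) and root, stem and leaf (seedlings 1 year old), 2 each. They did not enter the main fit. Their levels were read for the models that the comparison picked out and for all tested models. Some correlations between libraries and some alternative fits used them too. Since the vegetative tissues come from younger seedlings, organ and age cannot be told apart in them. The labels do not say which kind of bud was taken, at what stage the labellum was cut, or whether replicates are separate plants, so p-values rest on library-to-library spread that could be purely technical. The series title and organism label name D. nobile, whereas D. officinale stands in the design text.

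The labellum, or lip, is the modified petal of an orchid flower that faces the column and serves as landing place and signal for pollinators. A floral bud encloses the organs of the flower while they are still growing, among them the anther, whose pollen orchids pack into pollinia, while a vegetative bud holds a shoot tip and young leaves. The study accompanied a genome assembly of the species and was concerned with its picrotoxane-type alkaloids. Its identifiers are gene model names without products, so no model below is given a function and no marker of either tissue could be read.

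Of the 31672 models 17411 had enough counts to be tested, and 699 were called higher in bud and 379 lower in bud (4.01% and 2.18% of those tested, 6.19% together). In whole organs, fewer cells of a type and less RNA per cell cannot be told apart. A model was called when its adjusted p was under 0.05 and its fold at least 2 (edgeR quasi-likelihood test, Benjamini-Hochberg adjustment over all tested models). The calls higher in bud were also larger, with a median log2 fold change of 4.03 and 449 models past 8-fold. The calls lower in bud had a median of -2.05, and 75 passed 8-fold. The smallest adjusted p in either direction was 0.0149. These counts moved with single libraries. With bud replicate 1 left out there were 1222 calls higher and 1282 lower, and with bud replicate 2 left out there were 2028 and 2008. Without labellum replicate 1 the test called 232 higher and 78 lower, and without labellum replicate 2 it called 237 and 92.

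**Figure D1:**
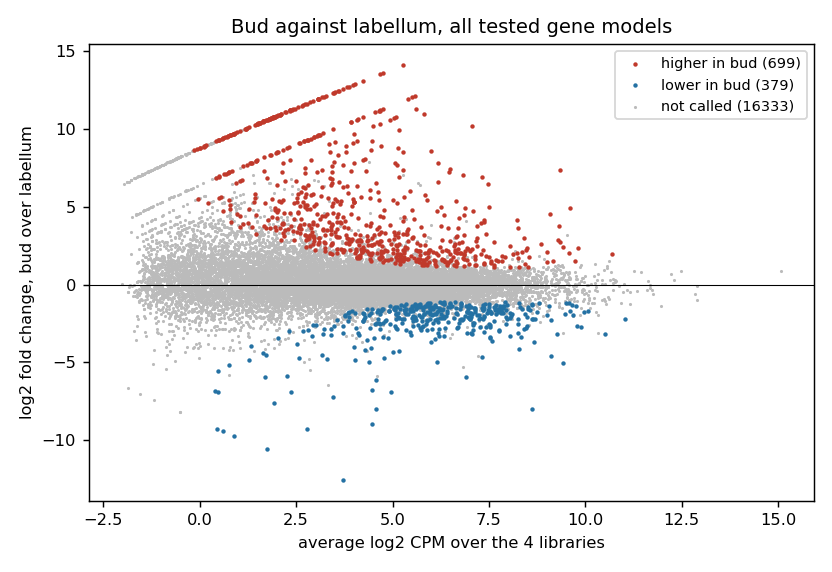
Each point is 1 of the 17411 tested gene models, with its average level (log2 CPM, the count scaled to library size) on the x axis and the fitted log2 fold change of bud over labellum on the y axis. The 699 models called higher in bud reach much larger folds than the 379 called lower, and the slanted lines at the upper left are models with 0 or very few counts in labellum, where the fitted fold depends on a prior count.

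The libraries were also compared one against another. Total counts were 27307456 and 30450170 in bud and 28863056 and 30188499 in labellum, so depth was similar. In TMM-scaled CPM with 0.5 added, bud replicate 1 was at least 2-fold above labellum replicate 1 at 3433 models and at least 2-fold below it at 3150. Against labellum replicate 2 these numbers were 3299 and 2813. Bud replicate 2 was at least 2-fold above labellum replicate 1 at 2765 models and below at 2217, and against labellum replicate 2 the numbers were 3191 and 2383. All 4 pairs of libraries were at least 2-fold higher in bud at 1565 models (8.99%) and at least 2-fold lower at 793 (4.55%). Of these, 697 and 376 were called, while 868 and 417 did not pass the test with 2 libraries a side. The other 2 calls higher in bud and 3 lower in bud had a pair just under 2-fold, the smallest log2 ratio being 0.98 in each direction.

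The 2 bud libraries were less alike than the 2 labellum libraries. Bud replicate 1 was at least 2-fold above bud replicate 2 at 2143 models and at least 2-fold below it at 2125. Labellum replicate 1 was at least 2-fold above labellum replicate 2 at 671 models and below it at 505. As a biological coefficient of variation, the replicate spread came to 0.424 in bud and 0.228 in labellum. Spearman's rho across the tested models was 0.909 between the bud libraries and 0.979 between the labellum libraries. Bud replicate 2 stood nearer to labellum, with a rho of 0.891 and 0.873 with labellum replicates 1 and 2, than bud replicate 1 did, with 0.843 and 0.858. Bud replicate 2 was also nearly as close to petal replicate 1 (0.907) as to bud replicate 1. These are descriptions across models, which are not independent replicates.

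The spread within bud had a direction at the models called higher in bud. In TMM-scaled CPM, 497 (71.1%) of these were higher in bud replicate 1 than in bud replicate 2, against 49.5% of all tested models. Among them, 141 were at least 2-fold above bud replicate 2, and 16 were at least 2-fold below it. Of the models called lower in bud, 195 (51.5%) were higher in bud replicate 1, and 10 were at least 2-fold apart in each direction.

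To describe the calls, the 50 with the largest fitted fold change in each direction are called leading models here. Only calls whose log2 CPM averaged 3 or more were eligible. In bud, 462 models were eligible, and the fitted log2 fold change was 9.56 at the last model taken and 9.23 at the first left out. In the other direction 353 were eligible, and both of these values were -3.10. The 2 lists therefore differ in fold, with medians of 11.29 and -3.71. All 50 of each list kept both bud libraries on one side of both labellum libraries, as did 31.1% of all tested models in the higher and 29.2% in the lower direction; the choice of called models all but fixes this. The smallest of the 4 pairwise log2 ratios had a median of 5.37 for the models higher in bud and 3.00 for those lower in bud.

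The leading models higher in bud were present in bud and near 0 in most other libraries. Their median level was 64.5 FPKM in bud and 0.016 in labellum. It was 0 in petal and root, 0.0245 in stem and 0.0178 in leaf. FPKM is the count scaled by coding length and by the library's total count. Of the 50 models, 45 (90.0%) stood under 1 FPKM in each of the 6 root, stem and leaf libraries, which is called off here, against 6.25% of all tested models. In petal 49 of them were off, against 14.7% of all tested models. In petal and the vegetative tissues alike 44 were off, against 4.76%. At a stricter limit 29 of the 50 were under 0.1 FPKM in every vegetative library, against 1.83% of all tested models. No count in any of these libraries was found for 13, against 1.05%. All 50 had their highest mean in bud, against 22.1% of all tested models, and 21 had no count in either labellum library, against 1.5%. These 50 of the 17411 tested models took 0.285% and 0.172% of the counts in the bud libraries. A share of counts also depends on coding length, whose median was 651 bp here and 1152 bp for all tested models. A model silent elsewhere enters the tested set only through bud, so these counts describe the list and test nothing. Root was read less deeply, with 14165136 and 5289212 total counts, against at least 27175842 in each stem and leaf library. A value of 0 in root is therefore less certain than in stem or leaf.

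**Figure D2:**
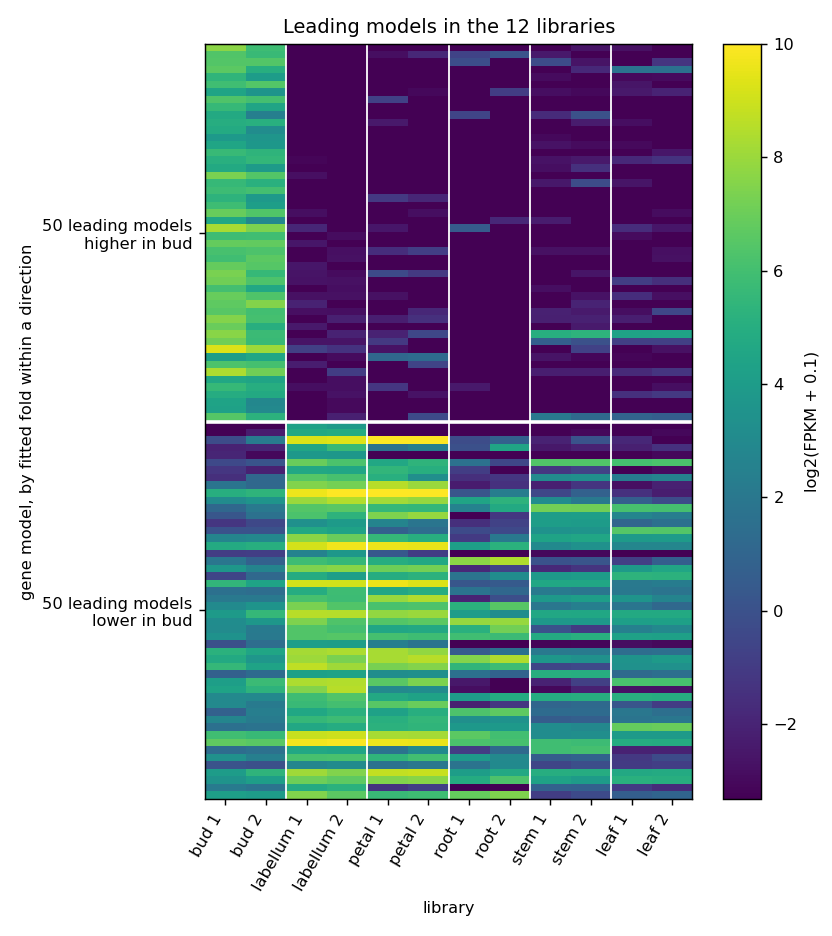
Rows are the 50 leading gene models per direction, in order of fitted fold, columns are the 12 libraries, and colour is log2(FPKM + 0.1). The upper 50 are bright in the 2 bud libraries and dark in the other 10 with few exceptions, while the lower 50 are bright in labellum and mostly in petal too, and many are also lit in root, stem or leaf.

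The largest fitted fold belonged to evm.model.Chr03.709-gene (chromosome 3, coding length 582 bp). It had 204 and 57.6 FPKM in bud, no count in either labellum or petal library, and at most 0.0632 FPKM in a vegetative library. It was at least 1450-fold higher in bud than in labellum, counted against a floor of 3 counts over the 2 labellum libraries, and its adjusted p was 0.0299 (edgeR). The bound was 659 without bud replicate 1 and 2340 without bud replicate 2, so it was higher when it rested on bud replicate 1 alone. The 2 bud libraries agreed more closely at evm.model.Chr17.265-gene (chromosome 17, 603 bp), with 85.6 and 87.1 FPKM, and no count in labellum or petal. It was at least 1030-fold higher in bud (adjusted p 0.0149, edgeR), and its highest vegetative value was 0.82 FPKM in root replicate 1. Between these lay evm.model.Chr13.232-gene (chromosome 13, 798 bp), with 84.0 and 51.8 FPKM in bud and none in labellum, at least 1050-fold higher (adjusted p 0.0201, edgeR). It had up to 0.948 FPKM in root, just under the limit for off.

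A further 3 of the named models had no count in any vegetative library, the root libraries being the shallowest. In evm.model.Chr17.1517-gene (chromosome 17, 735 bp) the bud libraries had 49.0 and 21.9 FPKM, and the other 10 libraries had no count at all. The same held for evm.model.Chr02.298-gene (chromosome 2, 1203 bp), with 28.6 and 8.68 FPKM in bud. At evm.model.Chr14.999-gene (chromosome 14, 396 bp) bud stood at 79.9 and 65.5 FPKM, labellum, root, stem and leaf at 0, and petal replicate 1 at 0.491. Their adjusted p values were 0.0256, 0.0322 and 0.0199 in that order (edgeR). Against labellum they were at least 503-fold, 429-fold and 564-fold higher in bud. For the first these bounds were 317 and 709 without bud replicates 1 and 2, and for evm.model.Chr02.298-gene 206 and 678.

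The remaining models named by fold had 0 labellum counts as well. They are evm.model.Chr18.709-gene, evm.model.Chr17.1783-gene, evm.model.Chr09.432-gene, evm.model.Chr16.721-gene, evm.model.Chr04.164-gene, evm.model.Chr17.1584-gene, evm.model.Chr09.712-gene and evm.model.Chr05.139-gene, all off in the vegetative tissues, and evm.model.Chr11.704-gene, which was not. Across the 15 models named by fold or as off in vegetative tissues, all with 0 counts in labellum, the bound ran from at least 379-fold to at least 1450-fold higher in bud. It ran from 151 to 1030 without bud replicate 1 and from 424 to 2340 without bud replicate 2. Leaving out a labellum library lowers every bound, since the same floor is then set against fewer reads, and gave 194 to 743 without labellum replicate 1 and 185 to 711 without labellum replicate 2. All 15 still passed when any 1 of the 4 libraries was left out. The weakest was evm.model.Chr16.721-gene (chromosome 16, 1473 bp), with 27.0 and 5.19 FPKM in bud, at least 450-fold higher than labellum and at an adjusted p of 0.0441 (edgeR). Its bound was 151 without bud replicate 1, the lowest of the 15, and 784 without bud replicate 2.

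**Figure D3:**
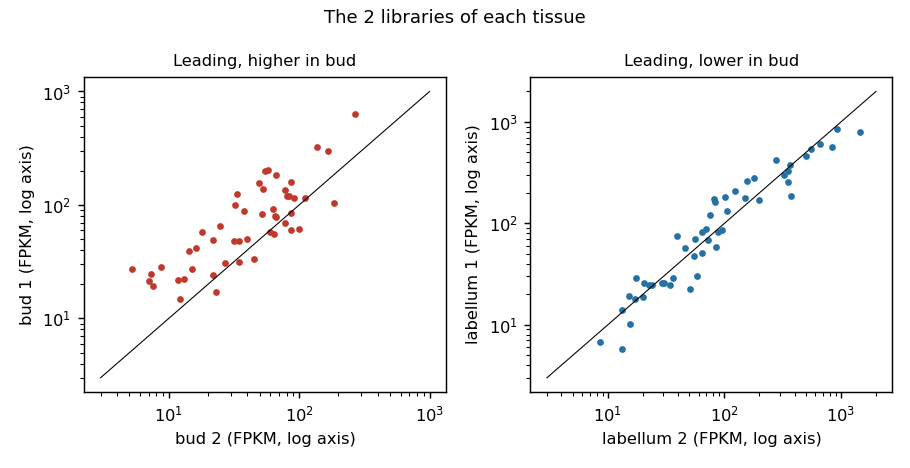
Each point is a leading gene model. The left panel sets its FPKM in bud replicate 1 (y axis) against bud replicate 2 (x axis) for the 50 models higher in bud, and the right panel does so for labellum replicates 1 and 2 and the 50 models lower in bud, on log axes with the line of equality. In the left panel most points lie above the line, while those of the right panel lie on both sides of it.

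The replicate difference was sharpest in this list. In TMM-scaled CPM, 44 (88.0%) of the 50 leading models higher in bud were higher in bud replicate 1. Their median log2 ratio was 0.942 over the 50, and 24 were at least 2-fold higher there. None was at least 2-fold higher in bud replicate 2. On plain FPKM, which has no TMM scaling, some of the 44 were slightly higher in bud replicate 2. One was evm.model.Chr17.265-gene, at 85.6 and 87.1 FPKM. Of the 50 leading models lower in bud, 23 were higher in labellum replicate 1 than in labellum replicate 2, with 1 at least 2-fold above and 3 at least 2-fold below. Levels of the bud list ranged from 14.9 to 636 FPKM in bud replicate 1 and from 5.19 to 266 in bud replicate 2, and no labellum library passed 0.469. In every pair of a bud and a labellum library, each of the 50 was higher in bud by at least 3.90 on the log2 scale.

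A set of 5 leading models higher in bud was not off in vegetative tissues, and they were picked for naming after their values were seen. The clearest was evm.model.Chr05.748-gene (chromosome 5, 234 bp), with 200 and 54.5 FPKM in bud and 0 and 0.142 in labellum. It stood at 33.1 and 39.5 FPKM in stem and 20.3 and 21.1 in leaf, with no count in root. The model evm.model.Chr17.1560-gene showed the same shape at lower levels, with 88.4 and 37.7 FPKM in bud, 0 and 0.128 in labellum, and 3.92, 2.28, 1.81 and 1.48 in the stem and leaf libraries. Leaf alone passed 1 FPKM for evm.model.Chr11.704-gene, at 3.23 and 3.02, beside 99.3 and 32.4 in bud and 0 in labellum. The remaining ones, evm.model.Chr13.205-gene and evm.model.Chr02.1088-gene, passed the limit in 1 library each, root replicate 1 at 1.34 and stem replicate 1 at 1.51 FPKM.

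Off in vegetative tissues went with the size of the fold. Among the models called higher in bud, 1 of 114 was off in root, stem and leaf at folds of 2 to 4, 1 of 136 at 4 to 8, 34 of 209 (16.3%) at 8 to 64, and 184 of 240 (76.7%) at 64 or more. Among those called lower in bud, 2 of 183 were off at 2 to 4, 4 of 121 at 4 to 8, 5 of 58 (8.62%) at 8 to 64, and 8 of 17 (47.1%) at 64 or more. Folds of models with 0 counts in the lower tissue depend on the prior count, so the top class is the least exact. From the lowest to the highest class higher in bud, median FPKM fell from 129 to 13.9 in bud and from 44.5 to 0.0138 in labellum. Models near 0 in labellum enter the tested set mainly through bud, so these shares describe the classes and test nothing. Over all calls, 220 of 699 (31.5%) models higher in bud and 19 of 379 (5.01%) models lower in bud were off in the vegetative tissues, against 6.25% of those tested.

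**Figure D4:**
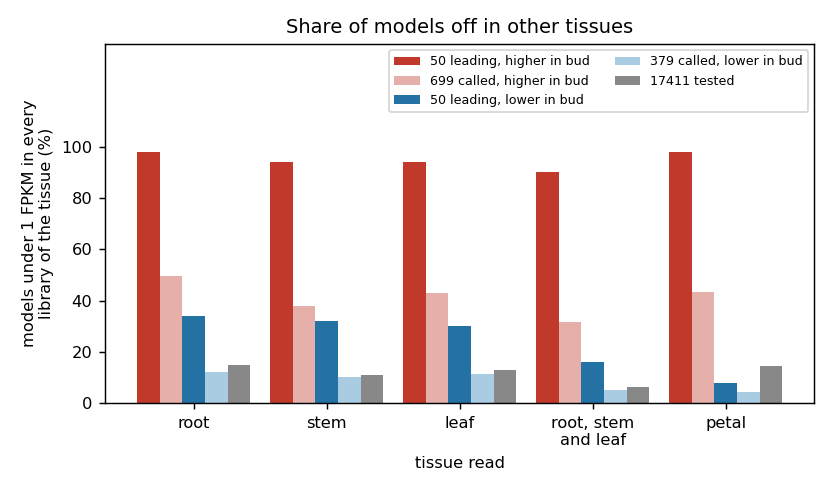
Bars give the percentage of models under 1 FPKM in every library of root, stem, leaf, all 3 together, and petal, for the leading and called models of each direction and for all 17411 tested models. The leading models higher in bud reach 90.0% for the 3 vegetative tissues together and 98.0% for petal, against 16.0% and 8.0% for the leading models lower in bud.

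Not all of bud's excess over labellum was private to bud. Of the 699 models higher in bud, 549 (78.5%) had their highest mean FPKM of the 6 tissues in bud, 66 (9.44%) in leaf, 56 (8.01%) in stem, 25 in root and 3 in petal. Over all tested models these shares were 22.1% in bud, 17.4% in leaf, 20.4% in stem, 22.1% in root and 9.72% in petal. The choice of models raises the share in bud. Together the 699 models took 6.71% and 5.97% of counts in the bud libraries and 1.17% and 1.10% in the labellum libraries, but 10.1% in each leaf library and 5.27% and 5.25% in stem. The following 2 were named after their values were seen. The model evm.model.Chr05.1115-gene (chromosome 5, 663 bp) had 1620 and 1770 FPKM in bud, 272 and 163 in labellum and 12400 and 12300 in leaf. The log2 fold change of bud over labellum was 2.89 ± 0.33 (SE), with an adjusted p of 0.0245 (edgeR). Likewise evm.model.Chr18.536-gene (chromosome 18, 1482 bp) had 63.0 and 129 FPKM in bud, 2.69 and 4.0 in labellum, 3490 and 3440 in stem and 5160 and 5200 in leaf. For bud over labellum the log2 fold change was 4.75 ± 0.45 (SE), with an adjusted p of 0.0211 (edgeR).

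The most abundant calls higher in bud were not at 0 in labellum or petal. The short model evm.model.Chr17.1370-gene (chromosome 17, 309 bp) had 6150 and 2220 FPKM in bud and 6.39 and 43.7 in labellum. Both bud libraries lay far above both labellum libraries, with a log2 fold change of 7.35 ± 1.26 (SE) and an adjusted p of 0.0405 (edgeR). Leaving out bud replicates 1 and 2 in turn gave 6.30 and 7.96, and leaving out labellum replicates 1 and 2 gave 6.55 and 9.32. Its vegetative values stayed at or under 15.5 FPKM. On chromosome 12, evm.model.Chr12.690-gene (360 bp) had 1300 and 4830 FPKM in bud and 142 and 100 in labellum, so that bud replicate 2 was the higher of the bud libraries. Its log2 fold change was 4.55 ± 0.68 (adjusted p 0.0321, edgeR), or 5.16 without bud replicate 1 and 3.45 without bud replicate 2. Nearby, evm.model.Chr12.697-gene (744 bp) had 4360 and 2770 FPKM in bud and 745 and 987 in labellum. The log2 fold change of 1.99 ± 0.38 was at an adjusted p of 0.0499 (edgeR), and of 0.245 and 0.142 without labellum replicates 1 and 2.

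The leading models lower in bud were mostly present in petal, and they were less broadly present in vegetative tissues than tested models at large. Their median level was 4.85 FPKM in bud and 76.4 in labellum. It was 42.9 in petal, 2.85 in root, 4.33 in stem and 3.62 in leaf. Of the 50 models, 45 (90.0%) reached 1 FPKM in both petal libraries, against 81.2% of all tested models, and 14 (28.0%) had a higher mean in petal than in labellum, against 41.6% of all tested models. Off in all vegetative libraries were 8 (16.0%), against 6.25% of all tested models. At 1 FPKM or more in both libraries of each of root, stem and leaf were 20 (40.0%), against 73.7%. As for the other list, these shares describe the models and test nothing. Labellum had the highest mean of the 6 tissues for 26 of them (52.0%, against 8.21% of all tested models, a share that the choice of models raises), petal for 12, root for 5, stem for 4 and leaf for 3. Among all 379 models lower in bud, root had the highest mean for 127 (33.5%), against 22.1% of all tested models.

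Several of the named models lower in bud were petal and labellum models alike. At evm.model.Chr17.673-gene (chromosome 17, 1200 bp) bud had 0.76 and 4.63 FPKM and labellum 600 and 664, while petal had 1130 and 1150. Its log2 fold change was -7.99 ± 0.94 (SE; adjusted p 0.0251, edgeR), or -7.25 without bud replicate 1 and -9.66 without bud replicate 2. At evm.model.Chr17.467-gene (chromosome 17, 1149 bp) bud had 32.6 and 40.1 FPKM and labellum 805 and 1460, with petal at 1630 and 1500, and the log2 fold change was -5.03 ± 0.41 (adjusted p 0.0198, edgeR). Root reached 4.94 FPKM there, so the model was not off in vegetative tissues, although stem and leaf stayed under 2.

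Another 2 models with the same petal pattern were off in all vegetative libraries. In evm.model.Chr17.702-gene (chromosome 17, 1401 bp) bud had 3.37 and 2.16 FPKM and labellum 177 and 149, with petal at 373 and 252, a log2 fold change of -5.93 ± 0.40 (adjusted p 0.0152, edgeR). In evm.model.Chr06.2196-gene (chromosome 6, 1758 bp) bud had 0.333 and 0.131 FPKM and labellum 24.9 and 23.7, with petal at 43.2 and 32.4. Its log2 fold change was -6.75 ± 0.59 (adjusted p 0.0201, edgeR), or -7.67 without bud replicate 1 and -6.15 without bud replicate 2.

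Others were low in bud but present in green tissue or in root. The model evm.model.Chr06.2461-gene (chromosome 6, 612 bp) had 0.658 and 1.02 FPKM in bud and 122 and 75.3 in labellum, and it was as abundant in stem (82.7 and 82.6) and leaf (67.6 and 75.4). Its log2 fold change was -6.94 ± 0.45 (adjusted p 0.0149, edgeR). At evm.model.Chr15.719-gene (chromosome 15, 1260 bp) bud had 0.145 and 0.156 FPKM and labellum 22.7 and 51.0. Its log2 fold change was -7.97 ± 0.64 (adjusted p 0.0194, edgeR), or -7.28 without labellum replicate 2, and the root libraries disagreed, at 0.84 and 21.9 FPKM. At evm.model.Chr18.1986-gene (chromosome 18, 579 bp) bud had 0.253 and 2.16 FPKM and labellum 89.0 and 69.7, a log2 fold change of -6.13 ± 0.91 (adjusted p 0.0321, edgeR). It was -5.35 without bud replicate 1 and -8.22 without bud replicate 2.

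In a row of neighbouring models on chromosome 10, several had labellum far above every other tissue. The model with the largest fitted fold lower in bud, evm.model.Chr10.567-gene (1473 bp), had no count in bud and 19.4 and 15.1 FPKM in labellum, and no count in the other 8 libraries. It was at least 488-fold lower in bud, against a floor of 3 counts over the 2 bud libraries (adjusted p 0.0199, edgeR); that bound was 257 and 231 without bud replicates 1 and 2, where the floor is set against fewer reads. Second by fold among the leading models was evm.model.Chr10.565-gene (1560 bp), with 0 and 0.105 FPKM in bud and 25.8 and 29.4 in labellum, and none in petal or root. Labellum was higher by a ratio of pooled CPM of 498 (adjusted p 0.0211, edgeR), or 263 without bud replicate 1 and at least 393 without bud replicate 2, which held all 5 of its bud counts. Also in this row, evm.model.Chr10.570-gene (1560 bp) had 0.164 and 0.0211 FPKM in bud and 13.9 and 13.2 in labellum, with no count in petal, root or stem. Its ratio was 153 (adjusted p 0.0265, edgeR), or 82.4 without bud replicate 2, and 644 without bud replicate 1, where a single bud count leaves a 95% counting interval of 116 to 25400.

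The whole stretch from model 555 to model 575 of chromosome 10 was then read, a choice made after these values were seen. Between 559 and 570, evm.model.Chr10.562-gene (1677 bp) was the most abundant, with 21.4 and 38.4 FPKM in bud and 185 and 376 in labellum. It also had 7.63 and 8.71 in petal and at most 0.132 in a vegetative library. On the log2 scale the change was -3.32 ± 0.47 (SE; adjusted p 0.0311, edgeR), or -2.73 without labellum replicate 2. The models evm.model.Chr10.568-gene and evm.model.Chr10.569-gene (1560 bp each) were called too, with 5.82 and 11.2, and 2.22 and 5.97 FPKM in labellum and no count in petal or any vegetative library; in bud the first had 0.0235 FPKM in replicate 1 and the second none. Their adjusted p values were 0.0239 and 0.0368 (edgeR).

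A further 2 models of the stretch had both labellum libraries above both bud libraries without passing the test. At evm.model.Chr10.559-gene (1524 bp) bud had 17.9 and 6.53 FPKM and labellum 72.1 and 143 (adjusted p 0.0604, edgeR), and at evm.model.Chr10.563-gene (384 bp) bud had 9.06 and 1.11 and labellum 32.7 and 160 (adjusted p 0.117, edgeR). Both were under 0.1 FPKM in every vegetative library. Inside the row, evm.model.Chr10.560-gene and evm.model.Chr10.561-gene did not follow the pattern and were not called. The first had 1.11 and 1.66 FPKM in bud, 0.696 and 0.396 in labellum and 0.881 and 2.26 in root. The second had 0.545 and 0.658 in bud, 0.893 and 0.987 in labellum and 1.14 and 0.987 in leaf. On the flank, evm.model.Chr10.556-gene was also called lower in bud, with 7.12 and 6.28 FPKM in bud and 25.2 and 29.9 in labellum, a log2 fold change of -2.10 ± 0.27 (adjusted p 0.0265, edgeR). Unlike the called models of the row, evm.model.Chr10.556-gene was present in root, at 65.0 and 62.5 FPKM. The model evm.model.Chr10.558-gene was not called and had 181 and 147 FPKM in bud, 179 and 222 in labellum and 206 and 371 in root. Of the 17 models lower in bud by 64-fold or more, 5 lie in this row, and they are 5 of the 8 in that class that were off in vegetative tissues. A group of 4, numbers 565, 568, 569 and 570, share a coding length of 1560 bp, and without a stated rule for reads with several matches their separate values are uncertain if their sequences are near-identical.

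**Figure D5:**
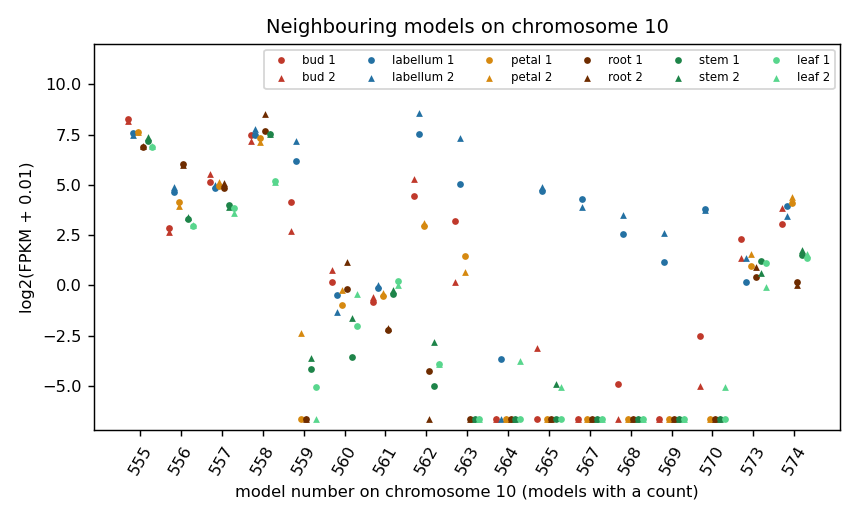
FPKM on a log2 scale (0.01 added, so a count of 0 sits at the bottom) of the models numbered 555 to 574 on chromosome 10 that had a count, with a colour per tissue and a circle and a triangle for replicates 1 and 2. From 559 to 570 the labellum points stand highest at 559, 562, 563, 565, 567, 568, 569 and 570, and the vegetative points lie near or at 0 there.

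On chromosome 12, 4 calls lower in bud lay close together between numbers 1102 and 1107, and 3 of them were off in vegetative tissues. The model evm.model.Chr12.1107-gene (1764 bp) had 0.415 and 0.447 FPKM in bud and 5.81 and 13.1 in labellum, with petal at 1.19 and 0.44. The fitted log2 change was -4.52 ± 0.61 (adjusted p 0.0295, edgeR), or -3.82 at an adjusted p of 0.125 without labellum replicate 2. Beside it, evm.model.Chr12.1106-gene (2337 bp) had 0.862 and 2.57 FPKM in bud and 17.9 and 16.98 in labellum, with petal at 5.20 and 3.26. On the log2 scale the change was -3.45 ± 0.54 (adjusted p 0.0349, edgeR), -4.31 without bud replicate 2, and its adjusted p was 0.0678 and 0.0585 without labellum replicates 1 and 2. The third, evm.model.Chr12.1104-gene, differed in petal, with 18.8 and 32.6 FPKM in bud, 78.5 and 64.7 in labellum and 82.4 and 85.7 in petal (adjusted p 0.0493, edgeR). The fourth, evm.model.Chr12.1102-gene, had no count in bud and 1.02 and 0.965 FPKM in labellum, and reached 2.86 in leaf. Both were named after their values were seen. Other runs lower in bud were not off in vegetative tissues. Of 5 calls between numbers 1383 and 1394 of chromosome 13, 0 were off, and of 3 between 239 and 243 of chromosome 16, 0 were off.

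The most abundant calls lower in bud were short models found in all floral tissues, and 2 of the 3 were abundant in root too. At evm.model.Chr16.202-gene (chromosome 16, 225 bp) bud had 1860 and 2830 FPKM and labellum 8110 and 6110, with a log2 fold change of -1.68 ± 0.29 (adjusted p 0.0423, edgeR). At evm.model.Chr17.9-gene (chromosome 17, 171 bp) bud had 2510 and 2720 FPKM and labellum 5870 and 5580, with a log2 fold change of -1.20 ± 0.22 (adjusted p 0.0447, edgeR). In root these models had 1930 and 3320 FPKM at evm.model.Chr16.202-gene and 5240 and 7870 at evm.model.Chr17.9-gene, which also had 1230 and 1340 in stem and 758 and 731 in leaf. Neither passed without either labellum library, with adjusted p values of 0.229 and 0.111 at evm.model.Chr16.202-gene, and 0.341 and 0.305 at evm.model.Chr17.9-gene. The model evm.model.Chr18.2268-gene (chromosome 18, 543 bp) separated the floral tissues more sharply, with 554 and 322 FPKM in bud, 3030 and 2410 in labellum and 852 in each petal library. The fitted log2 change was -2.68 ± 0.40 (adjusted p 0.0327, edgeR; 0.0652 without labellum replicate 1), and root and stem stayed under 4 FPKM, while leaf had 11.3 and 12.1.

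Petal stood nearer to labellum than to bud at the models higher in bud, while at those lower in bud the answer depended on the scale. Choosing models with bud far above labellum all but fixes the first of these, so it tests nothing. It was not particular to petal. For the leading models higher in bud, medians were 0 FPKM in root, 0.0245 in stem and 0.0178 in leaf, beside 0.016 in labellum. On log2(FPKM + 1), the petal mean was closer to the labellum mean for 50 of 50 leading models higher in bud and for 39 of 50 (78.0%) of those lower in bud, against 59.3% of all tested models. On plain FPKM it was closer for 50 of 50 higher and 28 of 50 lower in bud, against 10305 of the 17411 tested models, so that the models lower in bud lay near the background. Over all calls it was closer to labellum for 645 of 699 higher and 264 of 379 lower in bud on the log scale, and for 676 and 211 on plain FPKM.

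Coding length moved with the comparison. Median length was 813 bp for the models called higher in bud and 1488 bp for those called lower, against 1152 bp for all tested models. Over 5 length classes of nearly equal number, whose first spans 153 to 618 bp and whose last spans 1923 to 16149 bp, median log2 fold changes were 0.47, 0.22, 0.03, -0.13 and -0.42. Calls higher in bud made up 6.95% of the shortest class and 1.75% of the longest, and calls lower in bud 1.00% and 3.53%. Models under 600 bp took 32.3% and 30.6% of counts in the bud libraries and 23.3% and 22.6% in the labellum libraries. After correcting each library for its length trend, 543 models were called higher and 303 lower, of which 531 and 273 were among the calls made without that step. The median length of the calls after correction was 999 bp for those higher in bud and 1152 bp for those lower, so the contrast was smaller. Among the named models evm.model.Chr16.721-gene, evm.model.Chr17.1370-gene and evm.model.Chr12.697-gene then missed the threshold. What part the libraries' own length trends have in the other calls was not tested.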

How the data were processed

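Per the labels' protocols, RNA came from a Qiagen column kit and was turned into libraries with the SMARTER kit for mRNA. The authors deposited raw read counts and FPKM values for 31672 gene models in 12 libraries. The sources used here do not give aligner, counter or strand handling; GRCm38 and mm10, both mouse builds, are listed in the submitters' processing notes. The deposited FPKM equals the count over one coding length per model and the library's total count.

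Counts of the 4 libraries entered edgeR 4.0.16, run in R 4.3.3 (filterByExpr, TMM, quasi-likelihood, 2 residual degrees of freedom), with library totals as sizes. Only bud and labellum entered this fit, since the spread between libraries differs widely among the tissues. Alternatives used DESeq2 1.42.0, limma 3.58.1, other samples and settings. Standard errors are the log2 fold change over the square root of F.

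Named models are, per direction, the 10 leading models with the largest fold and no overlap, the 3 most abundant calls, and the first 5 further leading models off in vegetative tissues (3 were left in the lower direction). Others are marked as chosen after their values were seen. Members and rules were chosen with earlier results of these data known. Counting intervals and floors cover counting error only, since no molecular identifiers are stated. Replicate numbers were not taken as pairs. No sequence is shown, since no reference was used here.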

Additional observations from a re-analysis of the deposited data

How the results depend on the processing

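The count of calls (699 higher and 379 lower in bud) depended on the method and on the libraries in the fit. DESeq2 on the same 4 libraries called 1864 higher and 1153 lower, edgeR on all 12 libraries 2191 and 1489, edgeR on the 6 floral libraries 1493 and 949, and limma-voom with a weight per tissue 1464 and 815. Limma on log2(FPKM + 1) without a filter called 183 lower, and 76.2% of its calls were higher in bud against 64.8% with edgeR. Leaving out single libraries gave 232 to 2028 calls higher and 78 to 2008 lower; the lone library of a tissue is then assumed to vary like the other tissue's. A replicate block, which pairs libraries by number, gave 66 and 11 calls, and the crossed pairing, added after seeing the data, gave 1432 and 993. Deviations of same-numbered libraries correlated at -0.331, and the labels do not say that the numbers pair samples. Under the block the list lower in bud held 11 models, of which 2 were off in vegetative tissues, 0 were off in petal and 0 had a neighbour within 3 numbers, and the list higher in bud had 2 with such a neighbour, against 6 of 50. With 10 of 50 such neighbours in the list lower in bud at first, the count was 4 to 9 when a library was left out, and 0 to 8 in the list higher in bud.

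With a limit of 0.1 FPKM for off, 29 of the leading models higher in bud and 5 of those lower were off in vegetative tissues. With 0 counts these were 13 and 1, against 45 and 8 at 1 FPKM. Over all tested models the shares were 1.83%, 1.05% and 6.25% in that order. The list higher in bud also changed with the method. Of its 50 models, 31 were off in vegetative tissues with limma on log2(FPKM + 1), with or without a filter. It was 38 with limma on log2(FPKM + 0.1) and 34 under the block, but 45 with DESeq2 and 44 with limma-voom. Off in petal were 38 with limma on log2(FPKM + 1), 37 without a filter, 47 on log2(FPKM + 0.1) and 39 under the block. With DESeq2 this was 49, as in the main fit. Without a library, 5 to 10 of the list lower in bud were off. All 34 named models kept their direction in every alternative, as choosing calls without overlap between the bud and labellum libraries all but fixes. They numbered 10 past the threshold under the block, 25 with limma on log2(FPKM + 1) without a filter, and 29 to 34 in the others.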

Other observations

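Calls were spread over all 19 chromosomes. The share of tested models called higher in bud lay between 2.93% (chromosome 15) and 5.24% (chromosome 13), and the share called lower between 1.15% (chromosome 15) and 3.19% (chromosome 10).

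On the bud side the longest run lay on chromosome 9, and it was picked after its values were seen. There evm.model.Chr09.138-gene had 158 and 87.0 FPKM in bud and 0.0462 and 0 in labellum, evm.model.Chr09.140-gene 48.0 and 34.0 in bud and 0 in labellum, and evm.model.Chr09.141-gene 66.4 and 80.5 in bud and 0.239 and 0 in labellum. These 3 had no count in petal or root. At the end of the run evm.model.Chr09.145-gene was broad, with 3430 and 1560 FPKM in bud, 220 and 144 in labellum, 669 and 781 in petal and 237 and 245 in stem. On chromosome 6, evm.model.Chr06.2492-gene, evm.model.Chr06.2494-gene and evm.model.Chr06.2495-gene had 10.9 and 6.07, 5.17 and 2.28, and 10.3 and 3.41 FPKM in bud and no count in the other 10 libraries. This run too was picked after its values were seen. By contrast, a run of 4 calls higher in bud between numbers 1438 and 1444 of chromosome 17 had 0 models off in vegetative tissues. Counting rules for near-identical neighbours are not given, so values within a run are uncertain.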
